A study of Mus musculus with 12 samples.

Results

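The desmosomal cadherins are the adhesion proteins of the desmosome, the junction that ties epidermal cells to each other, and mice carry 9 genes for them. The 9 were taken by symbol from the 36400 genes of the deposited dorsal skin table: the desmogleins Dsg1a, Dsg1b, Dsg1c, Dsg2, Dsg3 and Dsg4 and the desmocollins Dsc1, Dsc2 and Dsc3. RNA was sequenced in 12 libraries, 3 for each of 4 groups of BALB/c mice, which were female and 6 weeks old at purchase. The backs of all mice were shaved and treated with hair removal cream before the first application. They were shaved again on day 24, and skin was collected on day 30. The control group received acetone and olive oil alone. The other 3 groups were sensitized with 1% 2,4-dinitrochlorobenzene (DNCB), a contact sensitizer, and then challenged with 0.5% DNCB, which gives dermatitis resembling atopic dermatitis. The DNCB group received nothing further. The scMSC group received 2000000 mesenchymal stem cells (MSCs) from human umbilical cord per injection. There were 4 injections from day 13 to day 25, each of 100 µL under the skin beside the lesion. The scivMSC group received the same cells, with 50 µL of each dose given subcutaneously and the other 50 µL through a tail vein. None of the 4 groups received DNCB with the culture solution but without cells.

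In a desmosome, the outer parts of desmogleins and desmocollins of neighbouring cells bind each other, and their inner parts bind plakoglobin and plakophilins, which connect through desmoplakin to the keratin filaments. The genes differ by cell layer. Desmoglein 1 and desmocollin 1 are strongest in the upper, differentiating epidermis, desmoglein 3 and desmocollin 3 in the lower layers, desmoglein 2 and desmocollin 2 occur in many epithelia, and desmoglein 4 belongs to the hair shaft, where its loss gives fragile hair. Mice carry 3 copies of the desmoglein 1 gene.

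All 9 genes lie in 1 cluster on chromosome 18 (GRCm38, 19960930 to 20604521), a span of 643.6 kb that holds no other protein-coding gene in GENCODE M21. The desmocollins lie on the minus strand in the order Dsc3 (ENSMUSG00000059898, 19960930 to 20002082), Dsc2 (ENSMUSG00000024331, 20030633 to 20059554) and Dsc1 (ENSMUSG00000044322, 20084184 to 20114871). The desmogleins follow on the plus strand, beginning with Dsg1c (ENSMUSG00000034774, 20247340 to 20285031), Dsg1a (ENSMUSG00000069441, 20310811 to 20343350) and Dsg1b (ENSMUSG00000061928, 20376729 to 20410196). Dsg4 (ENSMUSG00000001804, 20436175 to 20471821), Dsg3 (ENSMUSG00000056632, 20510274 to 20547459) and Dsg2 (ENSMUSG00000044393, 20558074 to 20604521) complete the row. The 3 desmoglein 1 genes are near-identical, with 95.3% to 97% of aligned coding bases the same, against 66.6% or less for each other pair of the 9. Of the stretches of 75 bases in the Dsg1a transcript, 26% also occur in the Dsg1b transcript, so reads may have been divided between these copies and their single values are uncertain. Dsg2 overlaps the antisense gene Gm16090, and reads of the pair cannot be told apart without strand information.

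The estimated counts summed to between 63877153 and 75134001 per library, and replicates of a group correlated at 0.928 to 0.957. Levels are given as FPKM, the authors' unit of fragments scaled by gene length and library size, which allows genes to be compared. Differences between groups are log2 fold changes ± standard error (SE) from edgeR's quasi-likelihood test on the estimated counts. A gene passed at a Benjamini-Hochberg adjusted p under 0.05 over the 21890 genes tested, and all 9 cadherins were among those tested. Other cell types moved with the groups as well. The summed FPKM of 5 skeletal muscle markers was 13312 to 19349 in the control libraries and 3528 to 9360 in the other 9, that of 6 fibroblast markers 1916 to 2233 in DNCB and 124 to 946 elsewhere, and that of 4 neutrophil markers 95.2 to 144 in DNCB and 2.41 to 11.7 elsewhere. Their part in the results that follow was not tested. In whole skin, fewer cells of a type and less RNA per cell cannot be told apart.

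Dsg1a and Dsc3 together made up most of the cadherin signal in every group. In control skin Dsg1a stood at 93.3 ± 27.6 FPKM (SD, n = 3) and Dsc3 at 77.5 ± 9.92, and their libraries overlapped. Dsc1 followed at 34.7 ± 17.6, below every Dsc3 library, then Dsg3 at 16 ± 2.77 and Dsg1b at 14 ± 7.73, which overlapped each other. Dsg2 at 1.15 ± 0.0801 and Dsc2 at 0.884 ± 0.345 overlapped at a much lower level, and Dsg4 at 0.203 ± 0.241 and Dsg1c at 0.147 ± 0.133 were lowest. In DNCB skin Dsc2 stood above Dsg2, at 9.19 ± 0.945 against 2.19 ± 0.421 FPKM, without overlap. Dsc3 was also ahead of Dsg1a there, at 130 ± 13.9 against 100 ± 15.9 FPKM, with libraries that overlapped. Summed over the 9 genes, the level was 188, 218 and 308 FPKM in the control libraries, 408, 432 and 355 in DNCB, 344, 393 and 291 in scMSC and 385, 376 and 263 in scivMSC. Every DNCB library thus lay above every control library, and the MSC groups overlapped both.

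**Figure D1:**
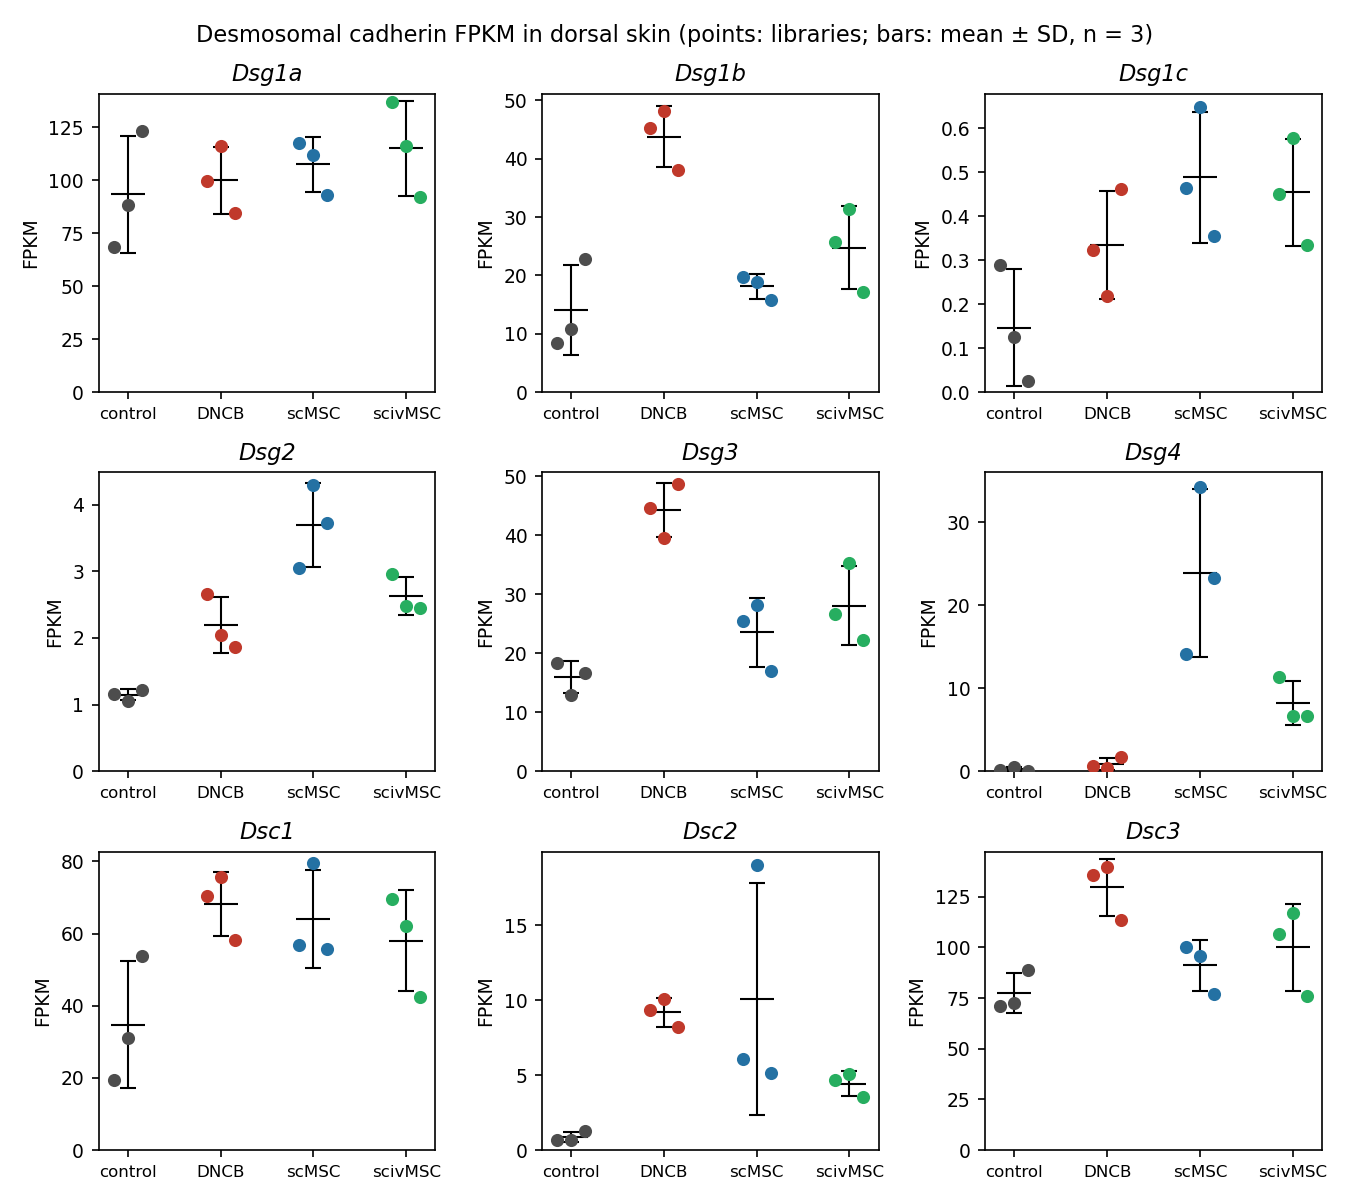
FPKM of the 9 desmosomal cadherin genes (vertical axes, each panel with its own range from 0) in the 4 groups, with 1 point per library and bars for mean ± SD over 3 libraries. Dsg1b and Dsg3 were highest in DNCB, Dsg4 was under 2 FPKM in control and DNCB and above 6 in both MSC groups, and Dsg1a varied as much within groups as between them.

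Between DNCB and control, 5 of the 9 cadherins passed, all higher in DNCB: Dsc2, Dsg1b, Dsg3, Dsg2 and Dsc3. In this comparison 12.9% of all tested genes were called higher in DNCB. The median log2 fold change of the 9 was 0.96, and that of all tested genes 0.022. The largest rise was in a desmocollin of low level, Dsc2, and the smallest in the most abundant one, Dsc3. The number that passed ranged from 3 to 5 when single libraries were left out, and it was 3 without DNCB replicate 1. It was 6, with Dsc1, under library size alone and with limma.

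**Figure D2:**
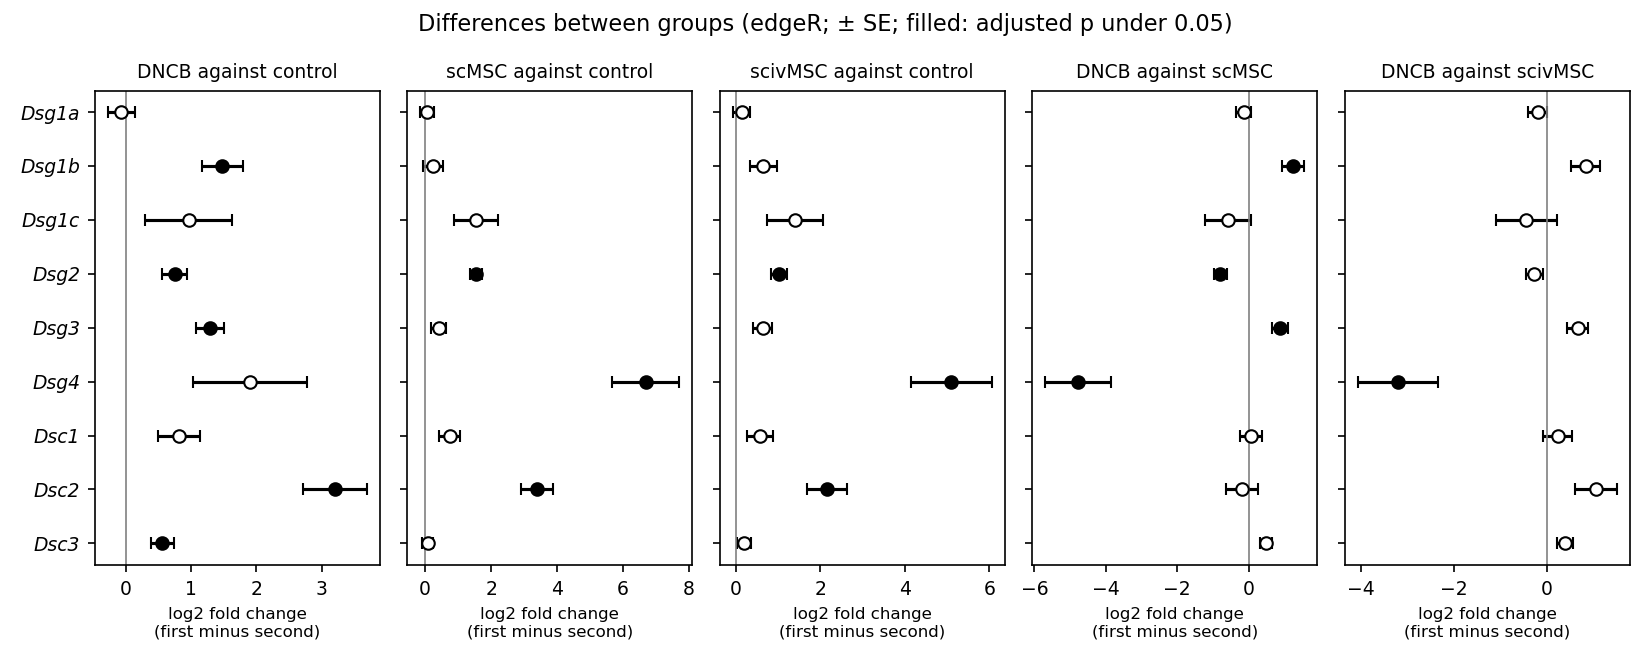
Log2 fold changes (horizontal axes, first group minus second, each panel with its own range) ± SE of the 9 genes in 5 comparisons, from edgeR over 12 libraries. Filled points mark an adjusted p under 0.05. Dsc2, Dsg1b, Dsg2, Dsg3 and Dsc3 are filled for DNCB against control, and Dsg2, Dsg4 and Dsc2 for each MSC group against control.

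Of the cadherins of the lower epidermis, Dsg3, the desmoglein that anchors basal and lower spinous cells, measured 18.4, 12.9 and 16.6 FPKM in the control libraries and 44.6, 39.5 and 48.7 in DNCB. It measured 25.4, 28.2 and 17 in scMSC and 26.7, 35.3 and 22.2 in scivMSC. Every DNCB library was above all 9 others. Dsg3 was 2.44-fold higher in DNCB than in control (log2 fold change 1.29 ± 0.22, adjusted p = 0.00244), and this held when each library was left out in turn (adjusted p up to 0.0154). Against scMSC it was 1.84-fold higher (log2 0.88 ± 0.22, adjusted p = 0.0252). That call was lost when the 6 libraries were fitted alone (0.0514), when any 1 of the DNCB libraries was left out and when scMSC replicate 1 or 3 was (0.0509 to 0.0825). Against scivMSC the log2 fold change was 0.66 ± 0.22 (adjusted p = 0.0973, and 0.0394 with DESeq2). Dsg3 did not pass against control in scMSC (0.41 ± 0.22, adjusted p = 0.23) or scivMSC (0.63 ± 0.22, adjusted p = 0.0856). The latter passed under library size alone (0.0302), with limma (0.0302 to 0.0316) and without scMSC replicate 3 (0.0461).

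Dsc3, the desmocollin of the same layers, measured 71.3, 72.3 and 89 FPKM in control, 136, 139 and 114 in DNCB mice, 100, 96 and 77 in scMSC mice and 107, 117 and 76.1 in scivMSC mice. The DNCB libraries lay above all control and scMSC libraries and overlapped scivMSC in 1 library. Dsc3 was 1.48-fold higher in DNCB than in control (log2 0.56 ± 0.17, adjusted p = 0.0327). This call depended on single libraries: the adjusted p was 0.0559 to 0.145 when any 1 control library, DNCB replicate 1 or 2 or scMSC replicate 2 was left out, and 0.0774 with no filter on low values. No other comparison of Dsc3 passed; against scMSC the log2 fold change was 0.48 ± 0.17 (adjusted p = 0.093, and 0.0453 with DESeq2).

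Marker genes of keratinocytes also differed between DNCB and control. Krt5 and Krt14, the keratin pair of basal cells, were higher in DNCB than in control by 1.27 ± 0.22 and 2.65 ± 0.39 on the log2 scale (adjusted p = 0.00278 and 0.00127), while Krt15, also a basal keratin, was lower (-1.69 ± 0.37, adjusted p = 0.00726). Of the 7 basal keratinocyte genes listed, 4 passed as higher and 1 as lower. In this comparison 12.9% of all tested genes were called higher in DNCB and 12.4% lower. Of the 8 suprabasal keratinocyte genes listed, 3 passed as lower and none as higher, with a median log2 fold change of -0.81. The 3 were Krt77 (-10.30 ± 1.07, adjusted p = 0.000481), Lor (-2.71 ± 0.36, adjusted p = 0.000948) and Sbsn (-1.18 ± 0.25, adjusted p = 0.00648). The 4 keratins of stressed or hyperproliferative epidermis, Krt6a, Krt6b, Krt16 and Krt17, all passed as higher in DNCB than in control, and their summed FPKM was 484 to 553 in control, 7079 to 8807 in DNCB, 683 to 1453 in scMSC and 1152 to 4581 in scivMSC, with the last value in scivMSC replicate 2. That library also had the highest Dsg3, Dsg1b and Dsc3 of its group.

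Among the cadherins of the upper epidermis, the desmoglein 1 copies did not move alike. Dsg1a, the most abundant copy, measured 68.5, 88.4 and 123 FPKM in the control libraries, 99.6, 116 and 84.3 in those of DNCB, 118, 112 and 92.9 in scMSC and 137, 116 and 92.3 in scivMSC. The groups overlapped in every comparison, and none passed, with log2 fold changes between -0.20 and 0.13 and adjusted p-values of 0.641 or more. The sign of its small difference between DNCB and control (-0.07 ± 0.21) depended on how libraries were scaled. Dsg1b measured 8.48, 10.8 and 22.9 FPKM for control, 45.2, 48.2 and 38 for DNCB, 19.7, 18.9 and 15.7 for scMSC and 25.7, 31.4 and 17.2 for scivMSC. Every DNCB library was above every other library, and control replicate 3 stood above the other control libraries.

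Dsg1b was 2.79-fold higher in DNCB than in control (log2 1.48 ± 0.31, adjusted p = 0.00612) and kept an adjusted p of 0.0323 or less when each library was left out. It was 2.37-fold higher than in scMSC (log2 1.25 ± 0.31, adjusted p = 0.0235), a call that was lost when DNCB replicate 1 or 2 or any 1 scMSC library was left out (adjusted p = 0.0505 to 0.0822). Against scivMSC the log2 fold change was 0.83 ± 0.31 (adjusted p = 0.131, and 0.0425 without control replicate 3). Dsg1c was close to the limit of detection, with 86, 39 and 8 estimated counts in control and 74 to 216 in the other libraries, or 0.0264 to 0.648 FPKM over all 12. No comparison of Dsg1c passed (adjusted p from 0.137), although scMSC against control had 0.0399 with limma on log2(FPKM + 0.1) and 0.0484 without control replicate 1. Because the copies can share reads, they were also summed: with Dsg1a, Dsg1b and Dsg1c as 1 gene, the log2 fold change of DNCB against control was 0.17 ± 0.22 (adjusted p = 0.624), and no comparison passed.

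The ratio of Dsg1a to Dsg1b, chosen after the values were seen, was 8.07, 8.21 and 5.39 in control, 2.2, 2.41 and 2.22 in DNCB mice, 5.97, 5.92 and 5.9 in scMSC mice and 5.34, 3.7 and 5.35 in scivMSC mice. The DNCB libraries lay below all others and within a narrow range, and the range of scMSC was narrower still. The exact two-sided permutation p was 0.10 for DNCB against each other group, the smallest that 3 libraries against 3 can give, and 0.20 after adjustment over the 18 ratio tests made.

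Dsc1, the desmocollin of the upper layers, measured 19.3, 31.1 and 53.9 FPKM in the control libraries, 70.4, 75.7 and 58.3 in those of DNCB, 56.8, 79.6 and 55.7 in scMSC and 69.6, 62.1 and 42.4 in scivMSC. In FPKM, all DNCB and scMSC libraries were above all control libraries, and the control libraries spread widely. The distance was small at its narrowest, between 53.9 in control replicate 3 and 55.7 in scMSC replicate 3. FPKM leaves out the library scaling used for the fold changes. Its factors, 0.961 and 1.04 for these libraries, differ by more than the values do, so the separation depends on the scaling. No comparison passed: the log2 fold change against control was 0.81 ± 0.32 in DNCB (adjusted p = 0.086), 0.75 ± 0.32 in scMSC (0.126) and 0.57 ± 0.31 in scivMSC (0.272). The side of the threshold turned on control replicate 3 and on the scaling. Without that library the adjusted p was 0.0198 for DNCB and 0.0322 for scMSC, and the log2 fold changes were 1.18 and 1.11. With all 12 libraries, DNCB passed against control when counts were scaled by library size alone (0.97, adjusted p = 0.0483) and with limma on log2(FPKM + 0.1) (1.09, adjusted p = 0.028).

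The balance between the upper and the lower cadherins was compared within libraries. The ratio of summed desmoglein 1 to Dsg3 was 4.21, 7.67 and 8.79 for control, 3.25, 4.16 and 2.52 for DNCB, 5.43, 4.66 and 6.41 for scMSC and 6.1, 4.19 and 4.94 for scivMSC. Every DNCB library lay below every other library, by 1.02 on the log2 scale in the mean against control, 0.75 against scMSC and 0.63 against scivMSC (exact permutation p = 0.10 each, adjusted 0.20). The distance was small at its narrowest, between 4.16 in DNCB replicate 2 and 4.19 in scivMSC replicate 2. The MSC groups did not separate from control (exact permutation p = 0.50 and 0.30). The ratio of Dsc1 to Dsc3 was 0.435 ± 0.167 in control, 0.525 ± 0.0156 in DNCB mice, 0.706 ± 0.133 in scMSC mice and 0.58 ± 0.063 in scivMSC mice (SD, n = 3). All DNCB libraries lay below all scMSC libraries (log2 difference -0.41, exact permutation p = 0.10), and DNCB overlapped control.

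**Figure D3:**
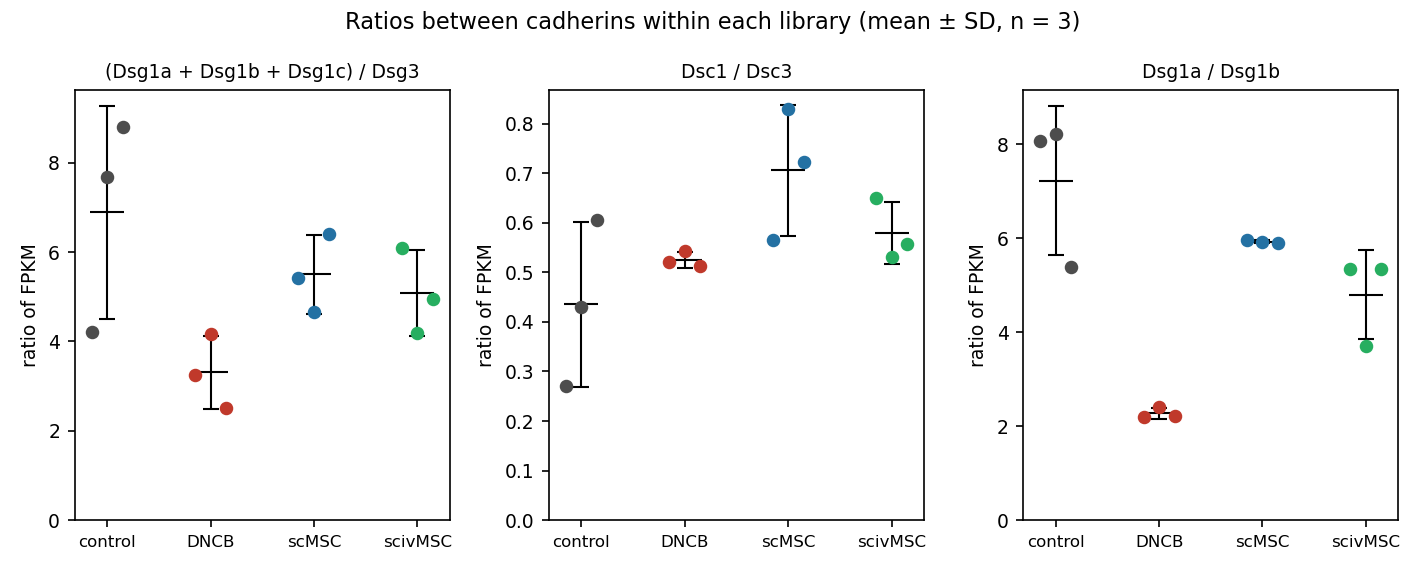
Ratios of FPKM within each library (vertical axes from 0) for summed desmoglein 1 to Dsg3, Dsc1 to Dsc3 and Dsg1a to Dsg1b, with 1 point per library and bars for mean ± SD over 3 libraries. In the outer panels the 3 DNCB points are below all others, with means of 3.31 and 2.28.

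As shares of the summed FPKM of the 9 genes, Dsg1a held 36.4% to 40.6% in control and 23.7% to 26.9% in DNCB, with the MSC groups between them at 28.5% to 35.5%. Dsg1b held 10.7% to 11.2% in DNCB and at most 8.33% elsewhere. The share of Dsc3 was nearly the same in control (33.3% ± 4.5) and DNCB (32.5% ± 0.613) and lower in scMSC (26.7% ± 2.39), where Dsg4 held 6.94% ± 2.49. Shares of 1 sum are bound to each other, so a higher share of 1 gene lowers the rest.

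**Figure D4:**
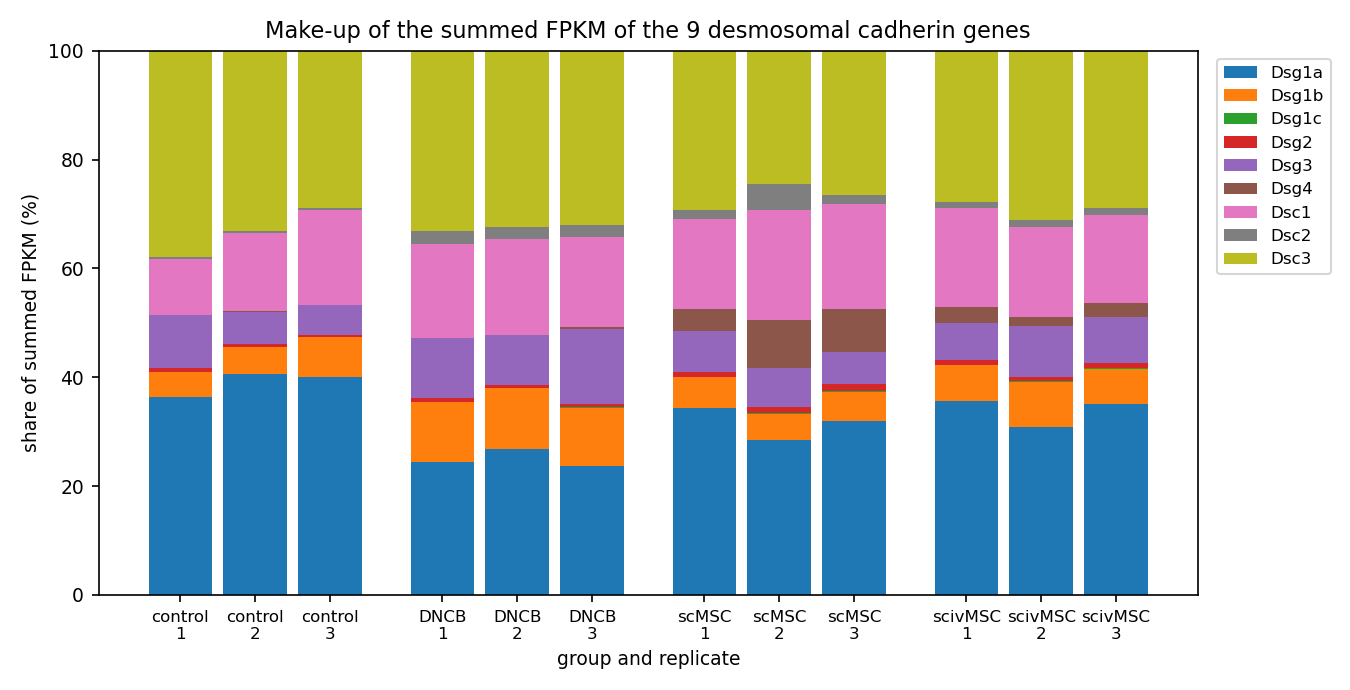
Share of each of the 9 genes in their summed FPKM (vertical axis, percent) in the 12 libraries, as stacked bars. Dsg1a and Dsc3 form the largest parts throughout. The Dsg4 part is visible in the MSC libraries, at 1.77% to 8.72%, and the Dsc2 part is largest in scMSC replicate 2, at 4.84%.

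The cadherins found in many epithelia, Dsc2 and Dsg2, were higher in all 3 groups that received DNCB than in control. Dsc2 measured 0.664, 0.707 and 1.28 FPKM in the control libraries, 9.31, 10.1 and 8.19 in those of DNCB, 6.11, 19 and 5.15 in scMSC and 4.7, 5.08 and 3.53 in scivMSC. All libraries of the DNCB-treated groups were above the control range, and scMSC replicate 2 was above the DNCB range with the other 2 scMSC libraries below it. Dsc2 was 9.21-fold higher in DNCB than in control (log2 3.20 ± 0.49, adjusted p = 0.00146), 10.5-fold in scMSC (3.40 ± 0.49, adjusted p = 0.00174) and 4.45-fold in scivMSC (2.15 ± 0.47, adjusted p = 0.0152). Without scMSC replicate 2 the fold in scMSC was 5.34 (log2 2.42, adjusted p = 0.00168). The call in scivMSC was lost without control replicate 1 or 2 (adjusted p = 0.0701 and 0.0582). The 3 comparisons share the control libraries.

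Between DNCB and the MSC groups Dsc2 did not pass. The log2 fold change of DNCB against scMSC was -0.19 ± 0.45 (adjusted p = 0.855) and became 0.75 (adjusted p = 0.12) without scMSC replicate 2. Against scivMSC, DNCB was 1.05 ± 0.45 higher on the log2 scale (adjusted p = 0.195), with all DNCB libraries above all scivMSC libraries. That difference passed without scMSC replicate 2 (adjusted p = 0.0255) and when the 6 libraries were fitted alone (0.0195).

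Dsg2 measured 1.16, 1.06 and 1.22 FPKM for control, 2.66, 2.04 and 1.86 for DNCB, 3.04, 4.3 and 3.72 for scMSC and 2.96, 2.48 and 2.45 for scivMSC. The control libraries were closely spaced and below all others, and the scMSC libraries were above all others. Relative to control it rose 1.68-fold in DNCB (log2 0.75 ± 0.19, adjusted p = 0.0135), 2.9-fold in scMSC (1.54 ± 0.19, adjusted p = 0.00115) and 2.03-fold in scivMSC (1.02 ± 0.19, adjusted p = 0.00774). The first call was lost without control replicate 2 (adjusted p = 0.0576) or DNCB replicate 1 (0.0583). Unlike Dsg3 and Dsg1b, Dsg2 was lower in DNCB than in scMSC (log2 -0.79 ± 0.18, adjusted p = 0.0186). That call was lost with the 6 libraries alone (0.0716) and when DNCB replicate 2 or 3 or scMSC replicate 2 was left out (0.0736 to 0.0818). Against scivMSC the difference of -0.27 ± 0.18 did not pass (adjusted p = 0.43).

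Dsg4, the desmoglein of the hair shaft, separated the MSC groups from the other 2. It measured 0.12, 0.475 and 0.0144 FPKM in the control libraries and 0.645, 0.326 and 1.72 in DNCB. It measured 14.1, 34.3 and 23.2 in scMSC and 11.3, 6.66 and 6.64 in scivMSC. All MSC libraries were above all control and DNCB libraries, and every scMSC library was above every scivMSC library. The control values rest on only 31, 123 and 4 estimated counts, so folds against control carry large errors.

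Against control, Dsg4 was 103-fold higher in scMSC (log2 6.68 ± 1.02, adjusted p = 0.00217) and 34.3-fold higher in scivMSC (5.10 ± 0.96, adjusted p = 0.00873). Both calls held under all 23 alternatives, in which the log2 fold change ranged from 4.30 to 8.21 and from 2.92 to 6.64. The folds were 296 and 99.5 without control replicate 2, and 68 and 22.8 without control replicate 3. Relative to DNCB, Dsg4 was 27.5-fold higher in scMSC (log2 4.78 ± 0.92, adjusted p = 0.00779), which also held under all 23, and 50.5-fold higher without DNCB replicate 3. The 9.19-fold difference between scivMSC and DNCB (log2 3.20 ± 0.86, adjusted p = 0.0455) was at the threshold. It was lost in 11 of 23 alternatives: when each library other than control replicate 2 or 3 was left out (adjusted p = 0.0509 to 0.153) and with a replicate block (0.0907). The fold was 16.9 without DNCB replicate 3, the library with the highest Dsg4 of its group. Dsg4 in DNCB did not pass against control (1.90 ± 0.87, adjusted p = 0.136), except without control replicate 2 (3.43, adjusted p = 0.0271).

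Of the other genes of the hair shaft and inner root sheath, 13 were tested, among them the hair keratins Krt31, Krt33a, Krt34 and Krt86, the inner root sheath keratins Krt25, Krt27 and Krt71 and trichohyalin (Tchh). Their summed FPKM was 5.24 to 352 in control, 308 to 989 in DNCB, 7598 to 21718 in scMSC and 2753 to 6846 in scivMSC, and the value of 352 was in control replicate 2, the control library with the highest Dsg4. All 13 were higher in scMSC than in control and 9 in scivMSC, where 10.4% and 7.11% of all tested genes were called higher. Compared with DNCB, 9 were higher in scMSC and 5 in scivMSC, directions in which 6.95% and 4.56% of all tested genes were called. Without single libraries the counts of these hair genes ran from 9 to 13, 5 to 13, 5 to 13 and 0 to 12. The median log2 fold change of DNCB against scMSC was -5.17 for these genes, -4.78 for Dsg4 and -0.016 for all tested genes. For example, Krt31 stood at 4.71 FPKM in DNCB and 270 in scMSC (log2 -5.90 ± 0.97, adjusted p = 0.00399).

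Transcription factors of the hair follicle showed the same direction at lower levels. All 6 listed (Hoxc13, Foxn1, Lef1, Msx2, Dlx3 and Gata3) were lower in DNCB than in scMSC, and 5 of 6, all but Foxn1, were lower than in scivMSC. In these directions 6.95% and 4.56% of all tested genes were called. The count against scivMSC was 2 without DNCB replicate 1 or 2 or scivMSC replicate 1, 3 without scivMSC replicate 3 and 6 without scMSC replicate 2. The count against scMSC stayed at 6 in each case. Hoxc13, a regulator of hair keratin genes, stood at 5.62 FPKM in DNCB and 53.6 in scMSC (log2 -3.29 ± 0.43, adjusted p = 0.00199), and Msx2 at 2.35 and 35.4 (-3.95 ± 0.69, adjusted p = 0.00501). Between DNCB and control 1 of the 6 passed, Gata3, which was lower in DNCB (-1.18 ± 0.18, adjusted p = 0.00137). In that direction 12.4% of all tested genes were called. The summed FPKM of the 6 was 34.4 to 62 in control, 33.7 to 45.2 in DNCB, 169 to 359 in scMSC and 112 to 171 in scivMSC. The labels do not give the hair cycle stage of the mice, and its part in the Dsg4 difference was not tested.

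**Figure D5:**
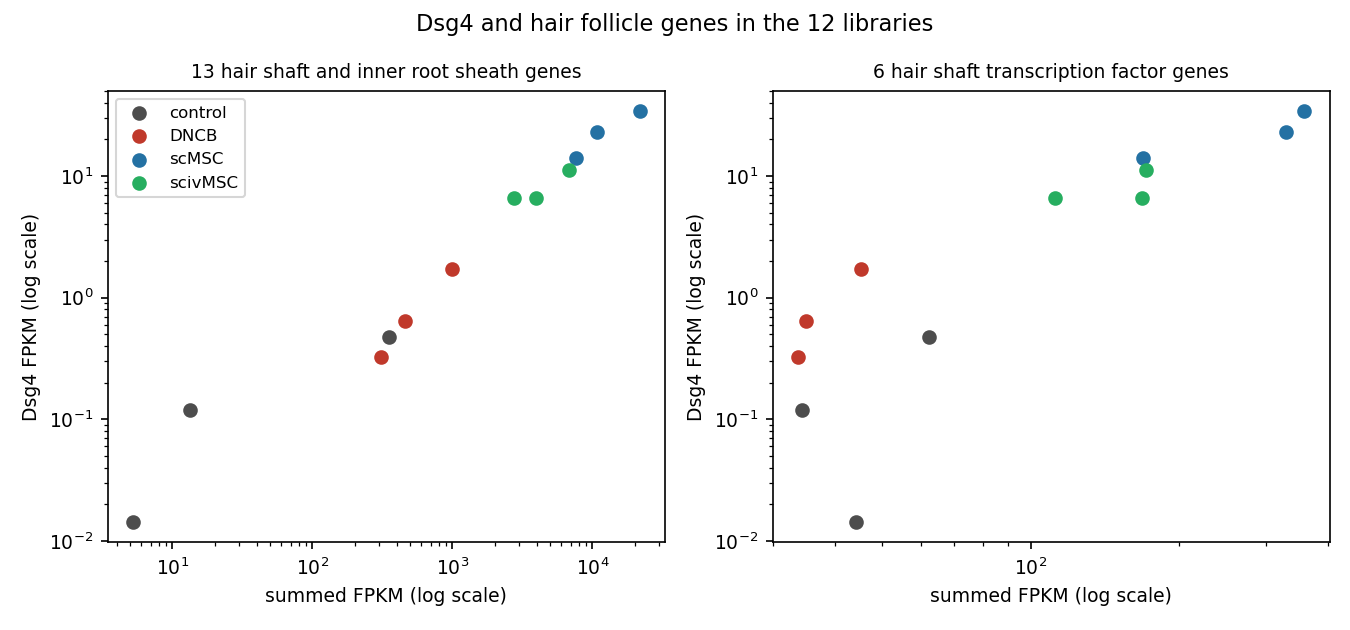
Dsg4 FPKM (vertical axes, log scale) against the summed FPKM of 13 hair shaft and inner root sheath genes and of 6 hair follicle transcription factor genes (horizontal axes, log scale), with 1 point per library. The 6 MSC libraries lie at the upper right in both panels, and control replicate 2 lies among the DNCB libraries in the first.

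In the comparisons with MSC treatment, the cadherins thus moved in different directions. Between DNCB and scMSC, 4 of 9 passed, with Dsg1b and Dsg3 higher in DNCB (5.77% of all tested genes were called in that direction) and Dsg4 and Dsg2 lower (6.95% of all genes). The count ran from 1, without DNCB replicate 2, to 4 over the left-out libraries, and was 2 when the 6 libraries were fitted alone. Between DNCB and scivMSC 1 of 9 passed, Dsg4, lower in DNCB, where 4.56% of all genes were called lower. Against control, 3 of 9 were higher in scMSC (10.4% of all genes) and 3 of 9 in scivMSC (7.11%), in both cases Dsg4, Dsc2 and Dsg2, and none were lower. The median log2 fold change of the 9 against control was 0.75 in scMSC and 0.65 in scivMSC, beside 0 and 0.039 over all genes. These comparisons share libraries, so they are not independent of each other.

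The routes of injection were compared directly. None of the 9 cadherins passed between scMSC and scivMSC in edgeR, where 1 of all tested genes did (0.00457%), and none passed with DESeq2 or limma. At an unadjusted p under 0.05, 2 of the 9 and 1642 of all genes differed. Those 2 were Dsc2, with a log2 difference of 1.24 ± 0.45 (adjusted p = 0.613), and Dsg2, with 0.51 ± 0.18 (adjusted p = 0.613). For Dsg4 the difference was 1.58 ± 0.80 (adjusted p = 0.707), with all scMSC libraries above all scivMSC libraries. At this spread, with 3 libraries per group, a difference of this size did not pass.

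Inside the cell the cadherins bind the proteins of the plaque. Of 8 genes for the plaque and other desmosome components (Dsp, Jup, Pkp1, Pkp2, Pkp3, Ppl, Evpl and Perp), 2 were higher in DNCB than in control. In that direction 12.9% of all tested genes were called. Jup, which encodes plakoglobin, stood at 143 against 58.6 FPKM (log2 1.10 ± 0.29, adjusted p = 0.0176). Pkp1, the plakophilin of the suprabasal epidermis, stood at 313 against 130 (1.10 ± 0.23, adjusted p = 0.00567). The median of the 8 was 0.35. Pkp2, the plakophilin found outside stratified epithelia as well, was lower in DNCB than in scMSC, at 0.525 against 1.66 FPKM (-1.69 ± 0.39, adjusted p = 0.0178), a call that was lost with the 6 libraries alone and without DNCB replicate 1 or scMSC replicate 3 (0.0604 to 0.0693). In scMSC, the envelope linker Evpl (1.11 ± 0.28, adjusted p = 0.0193) and Pkp3 (0.62 ± 0.17, adjusted p = 0.0289) were higher than in control, a direction in which 10.4% of all tested genes were called. None of the 8 passed between DNCB and scivMSC, scivMSC and control or the MSC groups. The call of Jup was lost without control replicate 1 or 3 or DNCB replicate 2 (0.057 to 0.0725). Those of Evpl and Pkp3 were lost without control replicate 1 or 2 or scMSC replicate 2 and with the 6 libraries alone (0.0836 to 0.14), and Pkp3 also without control replicate 3 and with no filter. Over the other settings and left-out libraries the count ran from 1 to 5 for DNCB against control, from 0 to 5 for DNCB against scMSC and from 0 to 3 for scMSC against control.

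Corneodesmosomes are the desmosomes of the cornified layer, which proteases cut when corneocytes are shed. Of 7 genes for them, 2 were lower in DNCB than in control, a direction in which 12.4% of all tested genes were called: Cdsn, which encodes corneodesmosin, at 81.4 against 177 FPKM (-1.30 ± 0.34, adjusted p = 0.0179), and the protease inhibitor gene Spink5 at 41.2 against 66.8 (-0.88 ± 0.25, adjusted p = 0.0244). Cdsn was lower than in scMSC as well (-1.52 ± 0.34, adjusted p = 0.0156), as were the membrane protease genes St14 (-1.94 ± 0.28, adjusted p = 0.00263) and Prss8 (-1.58 ± 0.47, adjusted p = 0.0491, with libraries that overlapped). The kallikrein gene Klk14 was higher in DNCB than in scMSC, at 6.29 against 0.549 FPKM (3.46 ± 0.59, adjusted p = 0.00457). Against scivMSC, St14 passed (-1.29 ± 0.28, adjusted p = 0.0215), but not when any 1 DNCB library or scivMSC replicate 1 or 3 was left out (0.0586 to 0.0828). The call of Prss8 against scMSC was lost in 18 of 23 alternatives (0.0551 to 0.214), and that of Cdsn against scMSC in 4 of 23 (0.0501 to 0.06). The call of Cdsn against control was lost when any 1 DNCB library or control replicate 3 was left out (0.0501 to 0.0622), and that of Spink5 in 8 of 23 alternatives (0.0507 to 0.0925). Over the other settings and left-out libraries the count ran from 0 to 4 for DNCB against control, from 2 to 4 against scMSC and from 0 to 4 against scivMSC.

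In adherens junctions, which use classical cadherins, 3 of 8 genes were higher in DNCB than in control, where 12.9% of all tested genes were called higher. Cdh3, which encodes P-cadherin of the basal layer and hair matrix, rose most, from 5.36 to 19.2 FPKM (log2 1.66 ± 0.28, adjusted p = 0.00225), and was also higher in scMSC (1.89 ± 0.28, adjusted p = 0.00199) and scivMSC (1.74 ± 0.28, adjusted p = 0.00558). Ctnnd1, which encodes p120-catenin, and Nectin1 passed in all 3 as well, although in scivMSC the calls were lost in 2 and 5 of 23 alternatives (0.0513 to 0.077). Against control, 6 of the 8 were higher in scMSC (10.4% of all genes) and 3 in scivMSC (7.11%), with medians of 0.75 and 0.50. The 6 included Nectin4, Ctnna1 and Afdn, whose calls were lost in 5, 7 and 9 of 23 alternatives. Over the other settings and left-out libraries that count ran from 3 to 8. Cdh1, which encodes E-cadherin, did not pass between DNCB and control (0.28 ± 0.13, adjusted p = 0.157). Nectin4 and Afdn were lower in DNCB than in scMSC (-1.07 ± 0.19 and -1.27 ± 0.25, adjusted p = 0.0053 and 0.00797), and both calls held under all 23 alternatives. Afdn was also lower than in scivMSC (-0.91 ± 0.24, adjusted p = 0.0448), a call lost in 11 of 23 alternatives (0.0577 to 0.153), among them each control and DNCB library left out, scivMSC replicate 1 or 3 left out and a replicate block.

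Across the 12 libraries, the cadherins differed in which genes they resembled. The measure was Pearson's r of log2(FPKM + 0.1) over the 12 libraries with 14378 genes, given as a description, since the libraries share 4 groups. Dsg4 was most like Krtap1-4, Krtap1-5 and Gm10229 (r = 0.995 each), of which the first 2 encode keratin-associated proteins of the hair shaft. Dsg3 was most like Krt6a (r = 0.967), the stress keratin, which stood at 86.6 FPKM in control, 2272 in DNCB mice, 220 in scMSC mice and 581 in scivMSC mice. For Dsg1b the nearest genes were Srd5a3, Tfe3 and Prelid1 (r = 0.973 to 0.978), for Dsc3 Tmem123, Ube2z and Plcg2 (0.962 to 0.978), and for Dsg2 Btg3, Braf and Gpnmb (0.979 to 0.984).

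Dsc1 was most like Atp6v0d1, Cers3, a ceramide synthase of the epidermis, and Mocos (r = 0.954 to 0.969), Dsc2 like Limk2, Gcnt1 and Rhog (0.969 to 0.976), Dsg1a like Sgpl1, Abhd5 and Slc26a2 (0.941 to 0.958), and Dsg1c like Cdk18, Esyt2 and Tead2 (0.902 to 0.920). Among the cadherins themselves, Dsg1b and Dsc3 were most alike (r = 0.95), followed by Dsg3 with Dsc3 (0.89) and Dsg2 with Dsg4 (0.88). Dsg1a and Dsg1b, the near-identical copies, had an r of 0.50, and Dsg4 had an r of -0.02 with Dsg1b and -0.01 with Dsc3.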

How the data were processed

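Total RNA of dorsal skin was sequenced by the authors, and 1 deposited table holds, for each of 12 libraries, FPKM and whole-number estimated counts per Ensembl gene; the counts are not scaled to each other. The submitters' processing notes name HISAT2 2.0, StringTie 1.3.0, Bowtie 0.12.2 and build mm8, and their roles are not given in the sources used here. Gene positions in the table follow GRCm38: 36285 of 36400 genes overlap their GENCODE M21 position. Some 38.9% to 41.2% of low counts per library were multiples of 4, and 1 fragment was taken as about 4 estimated counts. Standard errors cover neither this nor losses before sequencing. Each library is 1 mouse as far as the labels say, with 3 per group.

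The deposited estimated counts were tested as they stand (they are whole numbers) in edgeR 4.0.16 (R 4.3.3) by its quasi-likelihood method. Genes averaging 0.1 FPKM or more were kept, libraries were scaled by TMM (factors 0.887 to 1.06), and the 4 groups entered 1 model with 8 residual degrees of freedom. The common biological coefficient of variation was 0.42. Adjusted p-values are Benjamini-Hochberg over the 21890 genes tested, and standard errors were derived from the two-sided F statistic. Alternatives were DESeq2 1.42.0, limma 3.58.1 on log2(FPKM + 0.1), other filters, scalings and thresholds, a replicate block, summed desmoglein 1 and each library left out. Ratios within libraries were compared on the log2 scale by exact two-sided permutation tests. Identity was computed between coding sequences of GENCODE M21 transcripts. The named genes are the 9 members, the genes of 14 lists (the markers, junction and hair genes) and, per member, the 3 most alike genes at a mean of 1 FPKM or more. The members and lists were chosen with earlier results of these data known. Krt85 was listed with the hair genes and was not analysed here. The edgeR step was tested on simulated counts with known fold changes between DNCB and control. Other steps used Python 3.11.15 with scipy 1.17.1, numpy 2.4.6, pandas 2.3.3 and matplotlib 3.10.9.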

Additional observations from a re-analysis of the deposited data

How the results depend on the processing

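Of 1218 recomputed results of single cadherins, 1132 kept their direction and their side of the threshold, 38 lost a call, 22 gained one and 26 changed sign, none of these 26 for a called difference. The cause was not tested. Scaling by library size alone moved the median of all genes against control from 0.022 to 0.20 on the log2 scale in DNCB, from 0 to 0.16 in scMSC and from 0.039 to 0.21 in scivMSC, and the genes called higher in DNCB from 2833 of 5541 (51.1%) to 4235 of 6297 (67.3%). Against control that split was 56.1% and 74.2% in scMSC and 53.7% and 74.7% in scivMSC.

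When a log2 difference over 1 was also required, 3 cadherins passed between DNCB and control and 2 between DNCB and scMSC. At an unadjusted p under 0.5 with a log2 fold change over 1, the counts were 2 against scMSC, 2 against scivMSC and 2 between the MSC groups. Between DNCB and control, Dsg4, Dsc2, Dsg3 and Dsg1b met that threshold. The shares of all genes at these thresholds were not computed, so the counts cannot be set against them. Fitted alone, the 6 libraries gave 2 against scMSC and 2 against scivMSC, where 2574 and 1639 of 21890 tested genes passed. DESeq2 gave 2 against scivMSC, where 3215 of all tested genes passed. Over the left-out libraries the counts ran from 3 to 5 against control, from 1 to 4 against scMSC and from 0 to 2 against scivMSC.

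No pairing of the libraries by replicate number was seen. The deviations of same-numbered libraries from their group means correlated at -0.318 to 0.237 over 18 pairs, above 0.1 in 2. Those of libraries with different numbers correlated at -0.266 to 0.236 over 36 pairs, above 0.1 in 7. With 3 libraries per group, these values cannot show that the libraries are unpaired. With the replicate number as a block, 0 cadherins passed between DNCB and scivMSC, Dsg4 having an adjusted p of 0.0907, and Dsg1b against scMSC had 0.0502.

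The sign of Dsg1a in DNCB against control turned to 0.098 with library size alone and to 0.13 with limma on log2(FPKM + 0.1), + 1 and + 0.01, and that of Dsc2 in DNCB against scMSC to 0.12, 0.087 and 0.12 with limma. Over the left-out libraries, Dsg1a ran from -0.28 to 0.092 in DNCB against control, from -0.16 to 0.21 in scMSC against control, from -0.076 to 0.29 in scivMSC against control and from -0.20 to 0.053 between the MSC groups. Dsg1b ran from -0.065 to 0.67 and Dsc3 from -0.064 to 0.20 in scMSC against control. Dsc1 ran from -0.051 to 0.32 and Dsc2 from -0.52 to 0.75 in DNCB against scMSC. Between the MSC groups Dsg1c ran from -0.19 to 0.34, Dsc1 from -0.084 to 0.31, Dsc3 from -0.26 to 0.011 and the ratio of summed desmoglein 1 to Dsg3 from -0.01 to 0.26.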
